A study of Mus musculus with 24 samples.

Results

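Interferon-stimulated genes are transcribed when a cell senses type I, II or III interferon, and 9 of them were followed here in bulk RNA of the mouse anterior cingulate cortex: Ifit1, Ifit3, Isg15, Irf7, Irf9, Oasl2, Bst2, Ifi27 and Usp18. They were taken by name from a table of 15232 genes, and all 9 were in it. A comparison over the study's arms asks whether the immune state of the tissue differed.

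The study sequenced 24 mice, 1 library per animal, in 3 arms of 8 with 4 females and 4 males each. The arms were untrained animals labelled WT, untrained animals labelled Thbs1/2 KO and trained animals labelled Thbs1/2 KO. The thrombospondins Thbs1 and Thbs2 are matrix glycoproteins that astrocytes, among other cells, secrete. Trained animals worked in a Skinner box, a chamber for operant tasks, under food deprivation, so food deprivation and training cannot be told apart. Neither the strain, the age nor the design of the knockout alleles is given in the labels, and no trained animals labelled WT were analysed here. The tissue was the whole area, all cells together, so for every result below fewer cells of a type and less RNA per cell cannot be told apart.

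Type I interferon binds the receptor Ifnar1/Ifnar2, the kinases Jak1 and Tyk2 become active, and the signal reaches the nucleus through ISGF3, a complex that contains Irf9. ISGF3 binds the interferon-stimulated response element (ISRE), a DNA motif of repeated GAAA cores, and turns on the genes studied here. In brain, microglia, endothelium and border macrophages are known to respond strongly. Irf9 is the DNA-binding subunit of ISGF3 and Irf7 is the factor that amplifies type I interferon production. Isg15 is a ubiquitin-like modifier and Usp18 both removes it from proteins and dampens the type I receptor. Ifit1 binds foreign RNA, and Ifit3 is a protein of the same family. Oasl2 is an oligoadenylate synthetase-like protein, Bst2 (tetherin) holds budding virus particles at the membrane, and Ifi27 is a small membrane protein.

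The promoters were searched for the ISRE, the motif that ISGF3 binds. RefSeq promoters of the build GRCm38.p6, each from 250 bases before to 50 bases after a transcription start, were available for 7 of the 9 genes. The search looked on both strands for the core GAAA followed by any 2 bases and a further GAAA, which 3.44% of 32851 RefSeq promoters held. It matched in 4 genes, Ifit1, Ifit3, Isg15 and Bst2. Their matching stretches are shown 5′ to 3′ on the strand of the gene, with the bases of the ISRE-like matches in capitals. In Ifit1 and Ifit3 the match lies on the opposite strand, so the capitals read as its reverse complement.
Ifit1, chr19:34640765-34640833, plus strand: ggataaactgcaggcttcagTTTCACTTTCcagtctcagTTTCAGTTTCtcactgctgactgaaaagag
Ifit3, chr19:34583353-34583436, plus strand: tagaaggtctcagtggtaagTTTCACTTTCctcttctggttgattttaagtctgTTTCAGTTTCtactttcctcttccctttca
Isg15, chr4:156200855-156200916, minus strand: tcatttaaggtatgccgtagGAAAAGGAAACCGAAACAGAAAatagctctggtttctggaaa
Bst2, chr8:71537567-71537622, minus strand: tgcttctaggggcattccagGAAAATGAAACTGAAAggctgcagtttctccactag

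Ifit1 held 2 separate matches, from base -104 to -95 and from -85 to -76 relative to the start, and Ifit3 held 2, from -156 to -147 and from -122 to -113. Isg15 held 3 matches that overlap each other, together from base -78 to -57. Bst2 held 2 overlapping matches, together from base -130 to -115. The letters of the interferon-gamma element, TTCNNNGAA, were in 8.30% of promoters and among these genes only in Bst2, where they overlap the first ISRE-like match. Irf7, Oasl2 and the 2 promoters listed for Irf9 held neither set of letters in these windows. Matches are letters in a window, and binding was not measured.

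Levels are in FPKM, which counts fragments relative to gene length and library depth, so genes can be compared with each other. Over the 24 libraries Ifi27 stood highest at 15.0 ± 2.10 FPKM (SD), followed by Ifit3 at 4.35 ± 0.714 and Irf9 at 3.79 ± 0.679. Bst2 was at 1.74 ± 0.479, Isg15 at 1.03 ± 0.394, Ifit1 at 0.886 ± 0.281, Irf7 at 0.766 ± 0.223, Oasl2 at 0.758 ± 0.272 and Usp18 at 0.419 ± 0.119 FPKM. Ifi27 lay above Ifit3 in all 24 libraries, as Irf9 did above Bst2 and Oasl2 above Usp18. Other neighbours in the order were less distinct. Ifit3 exceeded Irf9 in 15 of 24 libraries, Isg15 exceeded Ifit1 in 16, Ifit1 exceeded Irf7 in 14, and Irf7 exceeded Oasl2 in only 10.

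Few reads lay behind the lower genes. Reads recovered from the FPKM steps numbered 6 to 29 per library for Isg15, 7 to 23 for Usp18, 10 to 41 for Bst2 and 11 to 48 for Irf7, against 116 to 273 for Irf9 and 172 to 524 for Ifi27. At the median of 12 reads for Usp18, counting error alone gives a coefficient of variation of 28.9%, and the spread of Usp18 between animals of 1 group was 0.955 times what counting gives. The same ratio was 1.29 for Bst2, 1.69 for Isg15, 1.76 for Irf7, 2.72 for Irf9, 3.15 for Ifit3, 3.33 for Ifit1, 4.25 for Ifi27 and 4.74 for Oasl2. Usp18 thus showed no animal-to-animal spread above counting error at this depth.

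Some gene models overlap or have close relatives. On GRCm38, Irf9 (chr14:55603571-55610030, plus strand, GENCODE M21) overlaps Rnf31 on the same strand, and Irf7 (chr7:141262706-141266481, minus strand) overlaps Phrf1 on the other strand. The strand setting of the counting is not given in the sources used here. Ifit3 (chr19:34583531-34588731) and Ifit1 (chr19:34640871-34650009) have close relatives, and the table lists Ifit3b at a mean of 2.51 FPKM and Ifit1bl1 at 2.11 FPKM. The values of Ifit3 and Ifit1 are uncertain where reads could be split between copies. None of the 9 genes lies on chromosome 2 or 17, which carry Thbs1 and Thbs2.

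The genotype labels were checked first. Thbs1 was at 0.512 ± 0.147 FPKM (SD, n = 8) in untrained libraries labelled WT, 3.68 ± 0.840 (SD, n = 8) in untrained libraries labelled KO and 4.63 ± 0.690 (SD, n = 8) in trained libraries labelled KO. Thbs2 was at 2.02 ± 0.294, 3.51 ± 0.378 and 3.29 ± 0.227 FPKM (SD, n = 8 each). Both genes went against the labels, so each direction below is one between libraries by their labels. Recovered depth ranged from 12314984 to 27156301 reads. All 8 trained animals carry animal numbers over 1000, against 2 untrained males labelled KO and 1 untrained male labelled WT, while the other 13 animals are numbered under 1000. Untrained male library 3 labelled KO stood apart, with the highest striatal and lowest cortical marker score of 24. Trained female library 2 was highest of 24 in 6 of the 9 genes and had the lowest neuronal and second lowest cortical score, as described below.

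**Figure D1:**
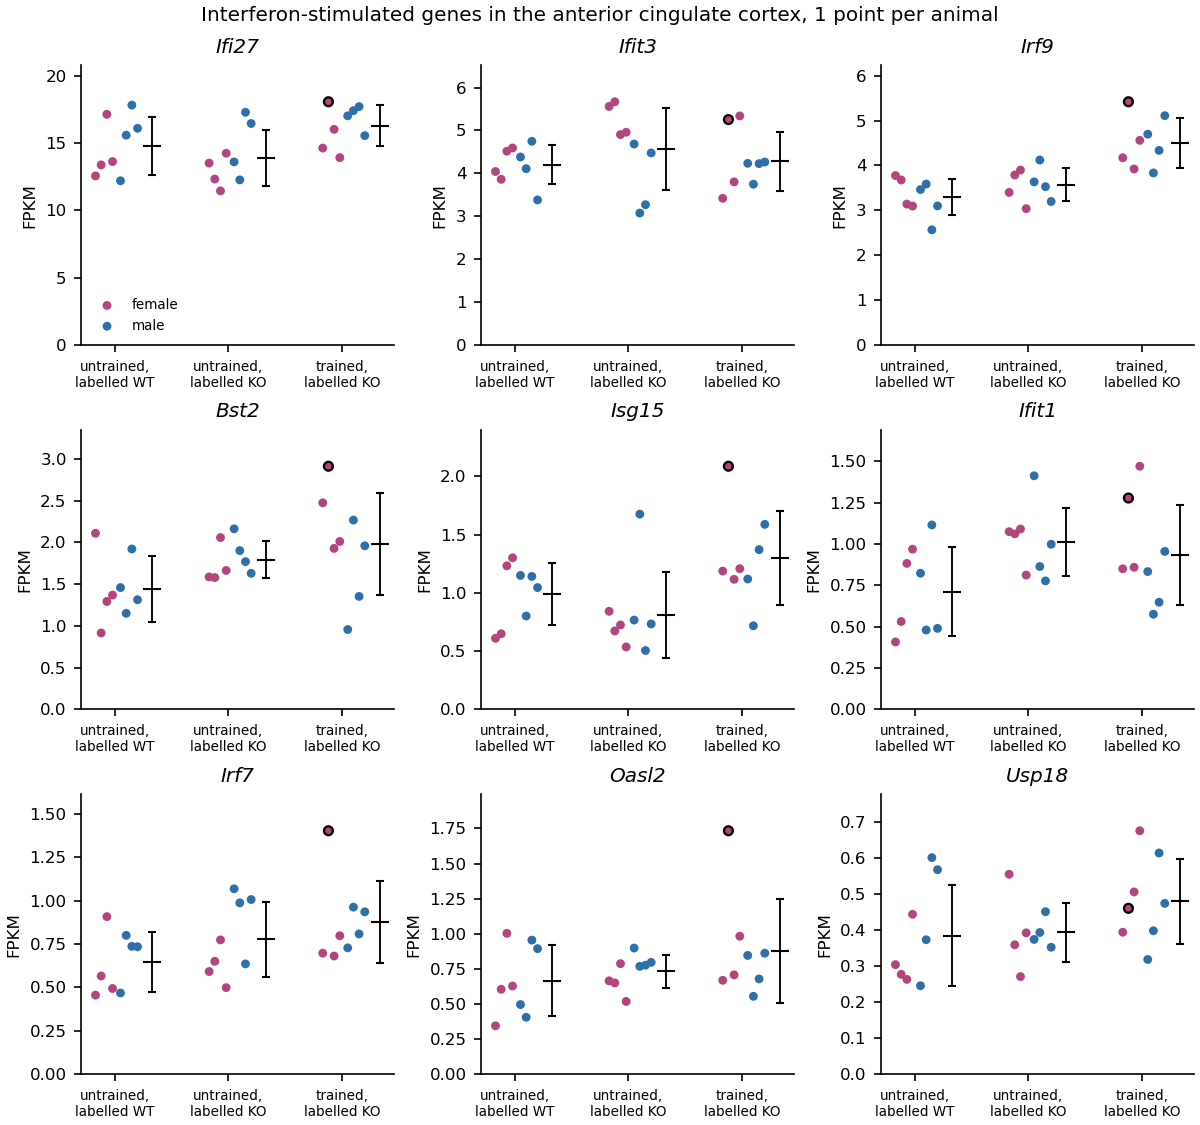
FPKM of the 9 genes in each animal (1 point, coloured by sex) in the 3 arms of 8, with the mean and SD of each arm beside the points. Trained female library 2, ringed in black, is the highest point for Isg15, Irf7, Irf9, Oasl2, Bst2 and Ifi27, and every arm overlaps the others except for Irf9, where trained animals lie wholly above those labelled WT.

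Across the arms the differences ran from -0.15 to 0.36 in log2(FPKM + 1), and 1 gene passed the test. This scale understates changes of low genes, so the sizes cannot be compared between genes. Ifit1, for example, averaged 0.713 FPKM in untrained libraries labelled WT and 1.01 in untrained libraries labelled KO, a difference of 0.24 on this scale. Of the 9 genes, 5 passed the filter of a mean of at least 1 FPKM (Ifi27, Ifit3, Irf9, Bst2, Isg15). The other 4 were read from a fit without the filter. Isg15 passed narrowly, at 1.03 FPKM over the 24 libraries. It averaged 0.991 FPKM in untrained libraries labelled WT, 0.807 in untrained libraries labelled KO and 1.30 in trained ones. Its place among the 5 thus rests on the trained arm. By genotype label in untrained animals, limma called 0 of the 5 (adjusted p under 0.05), where 1.42% of all tested genes were called, and 1 of them had an unadjusted p under 0.05, as did 12.7% of all tested genes. A limma-voom fit on recovered reads also called 0. For training, 1 of the 5 was called against 5.67% of all tested genes, and for trained labelled KO against untrained labelled WT 1 of the 5 was called against 24.5%. Without the filter the calls among the 9 were 0, 1 and 1, where 1.37%, 4.4% and 21.4% of 15232 genes were called. The called gene was Irf9 each time. By genotype label and for training the arms overlapped for all 9 genes, where 0.501% and 0.962% of tested genes had arms that did not overlap. The comparisons share arms, so their results are not independent of each other.

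Most differences lay above 0, and fewer did in the comparisons with trained animals once animal number was taken into account. By genotype label 7 of the 9 genes were above 0. The median difference was 0.08 in log2(FPKM + 1), against a median of -0.00076 over all 15232 genes. Isg15 (-0.19) and Ifi27 (-0.041) stayed the only genes below 0 with animal number as a covariate. For training 7 of 9 were above 0, with a median of 0.09 against -0.0022, but 5 of 9 were above 0 with animal number as a covariate and 4 of 9 among males numbered over 1000. Trained animals labelled KO lay above untrained animals labelled WT in the mean of all 9, with a median of 0.18 against -0.0048, and 7 of 9 were above 0 with the covariate. The sizes moved both ways with it. Ifi27 went from 0.14 to 0.46 and Irf7 from 0.19 to 0.37, but Isg15 went from 0.20 to 0.057 and Ifit1 from 0.18 to -0.0031. Only 1 untrained animal labelled WT is numbered over 1000, so that fit can hardly separate arm from number. The arm with the highest mean was the trained arm for 7 genes and the untrained arm labelled KO for 2, Ifit1 and Ifit3. Most of these differences did not pass the test.

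**Figure D2:**
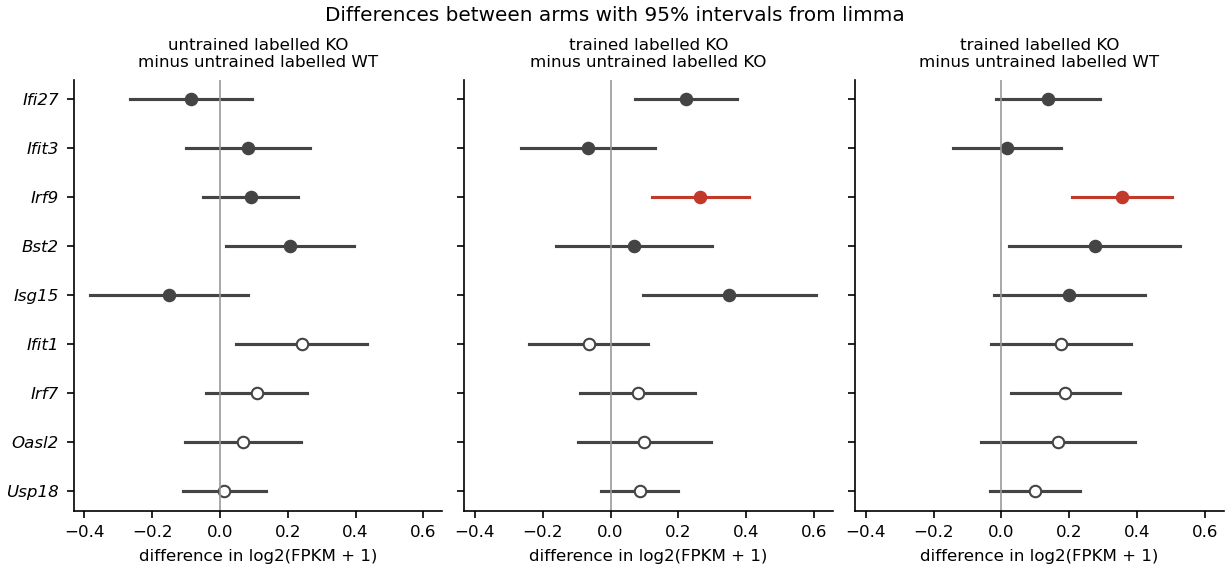
Difference in log2(FPKM + 1) of each gene in the 3 comparisons, with the 95% interval from limma; filled points passed the filter on low values, open points come from the fit without it, and red marks an adjusted p under 0.05. Only Irf9 is red, for training (0.26) and for trained labelled KO against untrained labelled WT (0.36).

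Irf9, the DNA-binding subunit of ISGF3, was the one of the 9 that passed the test. Neither of its calls held with animal number as a covariate, a fit that separates arm from number poorly. Only 2 untrained animals labelled KO and 1 labelled WT are numbered over 1000. Its lowest, median and highest values were 2.57, 3.30 and 3.78 FPKM in untrained libraries labelled WT, 3.04, 3.58 and 4.12 FPKM in untrained libraries labelled KO, and 3.83, 4.45 and 5.42 FPKM in trained libraries labelled KO. The untrained arms overlapped over most of their range, and the trained arm began above every library labelled WT. Trained animals labelled KO exceeded untrained ones by 0.26 in log2(FPKM + 1) (SE 0.0681, limma adjusted p = 0.0329; exact permutation within sex, 2-sided, p = 0.00204), with all 8 above the untrained mean. They exceeded untrained animals labelled WT by 0.36 (SE 0.0704, limma adjusted p = 0.00183; exact permutation p = 0.0004082, the smallest the design gives). Arms did not overlap in that comparison for 3.11% of tested genes. By genotype label alone the difference was 0.09 (95% interval -0.05 to 0.23, limma adjusted p = 0.612).

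The training difference of Irf9 was close to the threshold. Leaving out 1 library took it past 0.05 in 7 of 16 fits, with limma adjusted p from 0.0515 to 0.0690 and differences from 0.23 to 0.28. With all libraries scaled to an equal sum it was 0.24 (limma adjusted p = 0.0784). The libraries left out in those 7 fits were the untrained females 1 and 4 and male 4, and the trained females 1, 2 and 4 and male 1. The difference to untrained animals labelled WT passed in all 16 such fits (adjusted p from 0.00170 to 0.00493). With animal number as a covariate, however, the limma difference was 0.16 for training (adjusted p = 0.649). Against untrained animals labelled WT it was 0.27 (adjusted p = 0.602). The SEs with the covariate, in the fit without the filter, were 0.114 and 0.159. Without the covariate, in the fit with the filter, they were 0.0681 and 0.0704. Rnf31, the ubiquitin ligase subunit whose gene overlaps Irf9 on the same strand, was at 7.60, 7.91 and 7.56 FPKM in the 3 arms and differed by -0.05 for training (limma adjusted p = 0.622).

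Irf7, the amplifier of interferon production, was low in every library. It ranged from 0.455 to 0.908 FPKM with a median of 0.650 in untrained libraries labelled WT, from 0.498 to 1.07 with a median of 0.712 in untrained libraries labelled KO, and from 0.681 to 1.40 with a median of 0.803 in trained ones. All arms overlapped. Against untrained animals labelled WT the trained arm was higher by 0.19 (SE 0.0764, limma without the filter, adjusted p = 0.0878; exact permutation p = 0.0322), which misses the threshold after adjustment, with 8 of 8 above the other mean. The differences by genotype label (0.11) and training (0.08) were smaller. Phrf1, which overlaps Irf7 on the other strand, was at 11.6, 12.1 and 13.1 FPKM and rose in the same comparison by 0.17 (limma adjusted p = 0.0102), and its part in the Irf7 values was not tested.

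Isg15 encodes the ubiquitin-like modifier. It was at 0.610 to 1.30 FPKM (median 1.09) in untrained libraries labelled WT, 0.505 to 1.68 FPKM (median 0.729) in untrained libraries labelled KO and 0.717 to 2.09 FPKM (median 1.20) in trained ones. In 7 of the 8 untrained libraries labelled KO it lay below the mean of those labelled WT, and the eighth, male 2, was the highest untrained value. Training gave a difference of 0.35 (SE 0.121, limma adjusted p = 0.0946; exact permutation p = 0.0200), and 7 of the 8 trained animals exceeded the mean of the untrained ones. The difference misses the threshold over all genes with the filter, which Isg15 passed only through the trained arm, and also without the filter. In fits without 1 library it passed in 1 of 16. It was 0.44 without untrained male 2 (limma adjusted p = 0.0199) and 0.28 without trained female 2 (limma adjusted p = 0.164). By genotype label Isg15 differed by -0.15 (95% interval -0.38 to 0.08).

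Usp18, the protease that removes Isg15 and restrains the receptor, was the lowest of the 9. Its medians were 0.339, 0.383 and 0.467 FPKM in the 3 arms, over 0.245 to 0.602, 0.271 to 0.555 and 0.318 to 0.676 FPKM. The arms overlapped almost fully, and no difference between them was detectable at 7 to 23 reads per library. The 95% intervals of the differences were -0.11 to 0.14 by genotype label, -0.03 to 0.20 for training and -0.03 to 0.23 for trained labelled KO against untrained labelled WT.

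Ifit1 and Ifit3 lie near each other on chromosome 19 and encode antiviral proteins of the same family. Ifit1 ranged over 0.408 to 1.12 FPKM (median 0.677) in untrained libraries labelled WT, 0.777 to 1.41 (median 1.03) in untrained libraries labelled KO and 0.576 to 1.47 (median 0.855) in trained ones. All 8 untrained libraries labelled KO lay above the mean of those labelled WT, although the ranges overlapped. That difference was 0.24 (SE 0.0911, exact permutation p = 0.0318), and it misses the threshold after adjustment over all genes (limma without the filter, adjusted p = 0.270). Ifit3 had medians of 4.24, 4.79 and 4.23 FPKM, with ranges of 3.38 to 4.75, 3.07 to 5.67 and 3.42 to 5.34 FPKM. Its differences lay between -0.07 and 0.08, and their 95% intervals reached from -0.26 to 0.27.

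Oasl2 and Bst2 act on viral RNA and on budding particles. Oasl2 was at 0.343 to 1.00 FPKM (median 0.615) in untrained libraries labelled WT, 0.517 to 0.898 (median 0.771) in untrained libraries labelled KO and 0.553 to 1.73 (median 0.776) in trained ones, and its differences of 0.07, 0.10 and 0.17 did not pass. Bst2 was at 0.915 to 2.11 FPKM (median 1.34), 1.58 to 2.16 (median 1.72) and 0.957 to 2.91 (median 1.98) in the same order. All 8 untrained libraries labelled KO exceeded the mean of those labelled WT for Bst2, and the trained arm spread widest. The difference by genotype label was 0.21 (SE 0.0891, limma adjusted p = 0.334; exact permutation p = 0.0437) and that of trained animals to untrained ones labelled WT was 0.28 (SE 0.120, limma adjusted p = 0.102; exact permutation p = 0.0633). Neither passes, and in fits without 1 library the latter passed in 1 of 16. It was 0.35 without trained male 1, the lowest trained library (limma adjusted p = 0.0278), and 0.21 without untrained female 2 labelled WT (limma adjusted p = 0.196).

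Ifi27 was the most abundant of the 9. It lay at 12.2 to 17.8 FPKM (median 14.6) in untrained libraries labelled WT, 11.4 to 17.3 (median 13.6) in untrained libraries labelled KO and 13.9 to 18.1 (median 16.5) in trained ones. All 8 trained libraries exceeded the mean of the untrained ones labelled KO, within overlapping ranges. The training difference was 0.22 (SE 0.0711, limma adjusted p = 0.0736; exact permutation p = 0.0118), short of the threshold over all genes. In fits without 1 library it passed in 1 of 16. It was 0.26 without untrained male 3 labelled KO, the library with high striatal markers (limma adjusted p = 0.0284), and 0.19 without trained female 2 (limma adjusted p = 0.134).

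Training and animal number largely coincide, and the values by number are given here. In animals labelled KO, Irf9 averaged 3.53 FPKM in the 4 untrained females and 3.36 in the 2 untrained males numbered under 1000, 3.88 in the 2 untrained males over 1000, and 4.52 and 4.50 in trained females and males. Isg15 averaged 0.694, 0.620, 1.22, 1.40 and 1.20 FPKM over the same groups, and Ifi27 12.9, 16.9, 12.9, 15.7 and 16.9 FPKM. The 2 untrained males over 1000 held Isg15 at 0.767 and 1.68 FPKM, within or just above the range of the trained males (0.717 to 1.59), and Ifi27 at 12.3 and 13.6 FPKM, below all trained males (15.6 to 17.7). With animal number as a covariate, the training difference in limma was 0.16 for Irf9, 0.012 for Isg15 and 0.42 for Ifi27 (adjusted p = 0.240 without the filter). Among males over 1000 alone, 4 trained against 2 untrained, it was 0.17 for Irf9, -0.00027 for Isg15 and 0.36 for Ifi27, and none passed after adjustment. In females, training and number cannot be told apart.

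**Figure D3:**
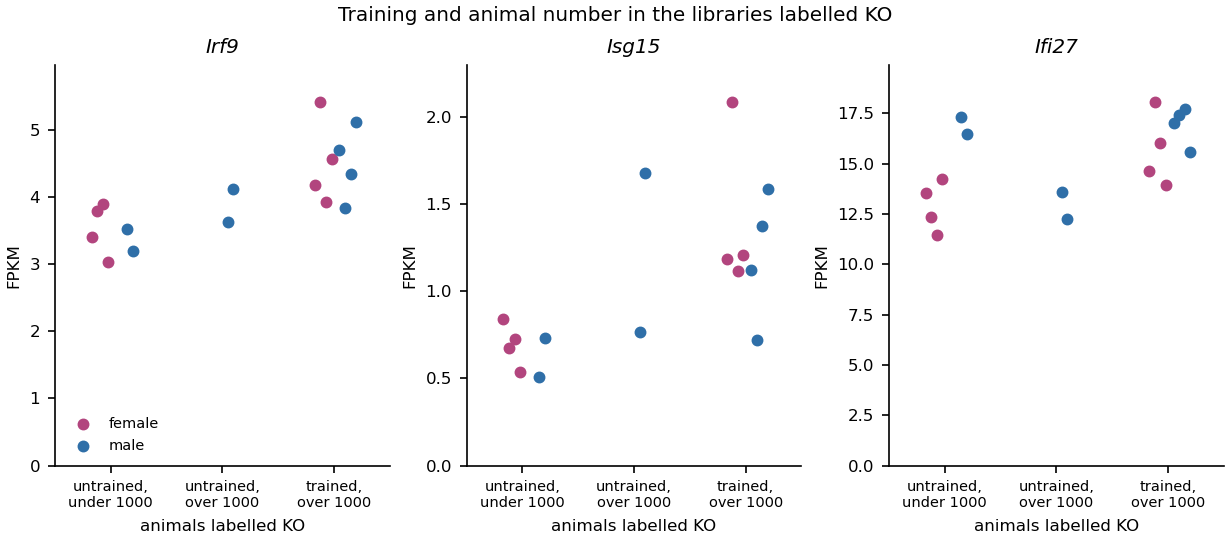
FPKM of Irf9, Isg15 and Ifi27 in the animals labelled KO, by training and by whether the animal number is under or over 1000 (1 point per animal, coloured by sex). Only 2 animals, both male, are untrained with a number over 1000, where Irf9 averages 3.88, Isg15 1.22 and Ifi27 12.9 FPKM.

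Sex was balanced over the arms. None of the 5 genes that passed the filter was called between males and females, where limma called 28.6% of all tested genes. Ifi27 averaged 15.8 FPKM in males and 14.2 in females, a difference of 0.14 (SE 0.0634, limma adjusted p = 0.108), and it was 0.28 in the 13 animals numbered under 1000 (limma adjusted p = 0.0162). Ifit3 averaged 4.05 FPKM in males and 4.66 in females, a difference of -0.16 (SE 0.0723, limma adjusted p = 0.0963). Interaction terms asked whether the arm differences depended on sex, and 0 of 5 passed for genotype label (0% of tested genes) and 0 of 5 for training (0.00795%), by limma. Without the filter 0 of 9 passed for either (0% and 0.00657% of 15232 genes). With the filter 1 gene in each had an unadjusted p under 0.05, as did 3.13% and 15.5% of all tested genes. These were Ifit3 for genotype label (-0.34, limma adjusted p = 0.980) and Bst2 for training (-0.43, limma adjusted p = 0.307).

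Animals of the same arm and sex differed in several of the genes at once. Trained female library 2 was the highest of 24 in Isg15 (2.09 FPKM), Irf7 (1.40), Irf9 (5.42), Oasl2 (1.73), Bst2 (2.91) and Ifi27 (18.1), and it lay over 1 SD above its own arm and sex in 7 of the 9 genes. Usp18, at 0.461 FPKM, was below its group mean there. Untrained male library 3 labelled WT lay over 1 SD above its group in 6 genes, and each of the other 22 libraries did so in 3 genes or fewer. In trained female library 2 the microglial marker score ranked 22 of 24, the endothelial score 20, the border macrophage score 2, the astrocyte score 4, the cortical score 23 and the striatal and neuronal scores 24. In untrained male library 3 labelled WT the microglial score was 4.27, the highest of 24. Its endothelial score was 2.76, its striatal score 4.38 and its neuronal score 7.81. The part of these markers in the values of either library was not tested.

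**Figure D4:**
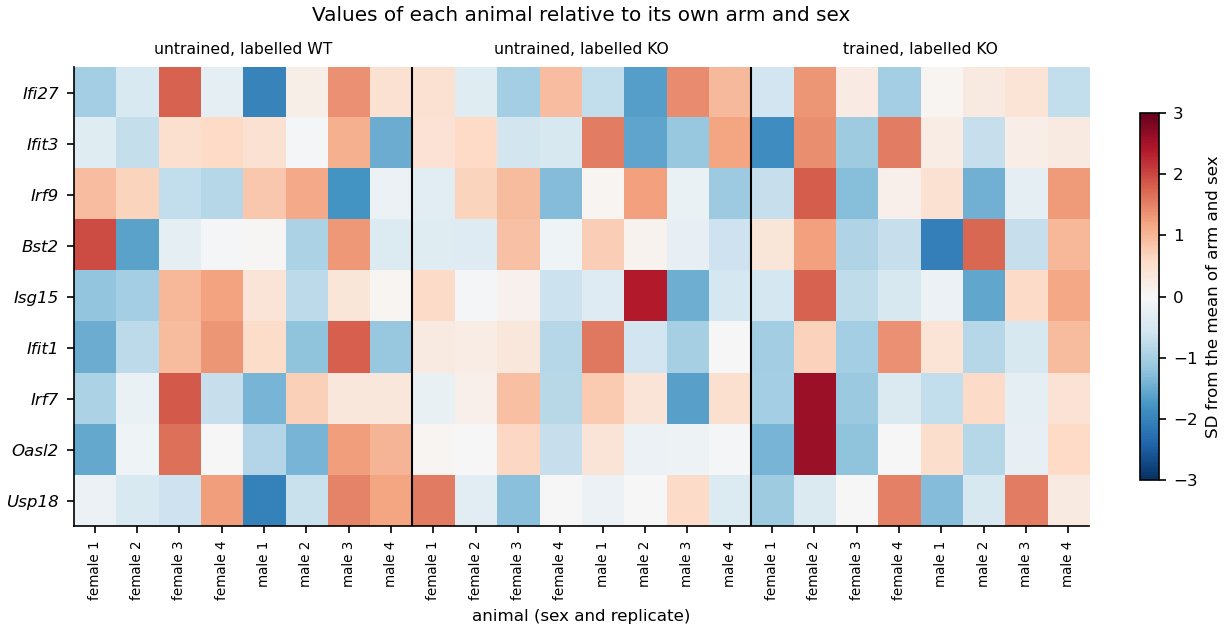
Each cell is 1 animal's log2(FPKM + 1) for 1 gene, minus the mean of its arm and sex and divided by the SD of these residuals over the 24 animals. The column of trained female library 2 is red for 8 of the 9 genes, reaching 2.58 SD for Oasl2 and 2.57 SD for Irf7.

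Pairs of genes were correlated across animals after the mean of each arm and sex was subtracted. Of 36 pairs 29 had r above 0, with a median of 0.167, against a median of 0.0024 over all 79021306 pairs of tested genes. The range from the 5th to the 95th percentile of all pairs was -0.520 to 0.541. Only Ifit1 and Ifit3 passed adjustment over the 36 pairs, with Pearson r = 0.789 (permutation p = 0.00014, adjusted p = 0.00504) and Spearman rho = 0.788 (permutation p = 0.00022, adjusted p = 0.00792) over 24 animals. Without the 2 animals farthest from the median r was 0.802. Within animals numbered under 1000 (n = 13) r was 0.732 and within those over 1000 (n = 11) 0.913, neither passing adjustment (permutation, adjusted p = 0.248 and 0.101). These 2 genes also lie near each other and have related sequences. The promoters of both hold the ISRE-like letters shown above, as do those of Isg15 and Bst2. The other pairs among these 4 genes had r from 0.064 (Ifit3 and Bst2) to 0.477 (Ifit1 and Isg15), and none passed. Whether the letters bear on the correlations was not tested.

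Other pairs were weaker. Irf7 and Oasl2 had r = 0.695 and rho = 0.551 (permutation adjusted p = 0.0942 and 0.0803), and r was 0.437 without the 2 farthest animals and 0.504 without trained female library 2. Isg15 and Oasl2 had r = 0.567 and rho = 0.579 (permutation adjusted p = 0.0749 and 0.0659), and r was 0.428 without trained female library 2. The lowest value was that of Irf9 and Ifi27, with r = -0.491 and rho = -0.549 (permutation adjusted p = 0.235 and 0.0803). Without trained female library 2, high in both, it was r = -0.741 and rho = -0.786 (permutation adjusted p = 0.00774 and 0.00378), a setting chosen after its values were seen. Within animals numbered under 1000 r was -0.727 and within those over 1000, which include trained female library 2, it was 0.057, or -0.524 without the 2 farthest animals. Without that library 22 of the 36 pairs were above 0, with a median of 0.108.

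The tested genes most like the 5 that passed the filter, by Pearson r over the 24 libraries with the mean of their standardized residuals, were Fat4 (0.813), Prox1 (0.791), Itga8 (0.788), Arg2 (0.775), Rtn4ip1 (0.752) and Nfib (0.748). Without trained female library 2 these were 0.624, 0.591, 0.613, 0.718, 0.670 and 0.678. That library held Prox1 at 9.23 FPKM, where the highest of the other 23 was 3.62. These r values describe the libraries and were not tested.

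Other genes of the interferon pathway were taken from 4 lists of 98 genes, of which 81 were in the table and 55 passed the filter. By genotype label 2 of the 55 were called (1.42% of all tested genes were). Ifngr1, a chain of the interferon-gamma receptor, rose from 7.44 ± 0.837 FPKM (SD, n = 8) to 10.3 ± 0.767 (SD, n = 8), a difference of 0.42 (SE 0.0577, limma adjusted p = 0.000494). B2m, the light chain of MHC class I and a gene of chromosome 2, as Thbs1 is, fell from 73.0 ± 5.34 to 54.5 ± 6.79 FPKM (SD, n = 8 each), a difference of -0.42 (limma adjusted p = 0.00230). Both calls held with animal number as a covariate. The median difference of the 55 genes was 0.0032, against -0.0014 over all tested genes.

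For training 3 of the 55 were called (5.67% of all tested genes were). Irf3, which turns on interferon genes after nucleic acid sensing, was higher by 0.33 in trained animals (4.09 ± 0.870 against 5.36 ± 0.587 FPKM, SD, n = 8; limma adjusted p = 0.0380). Tlr7, a receptor for single-stranded RNA, fell by 0.27 (1.30 ± 0.241 to 0.907 ± 0.153 FPKM, SD, n = 8; limma adjusted p = 0.0325). Tap2, a peptide transporter subunit encoded on chromosome 17, as Thbs2 is, fell by 0.28 (limma adjusted p = 0.0380). None of the 3 passed with animal number as a covariate, where the differences were 0.088 for Irf3, -0.13 for Tlr7 and -0.32 for Tap2. Only 2 untrained animals labelled KO are numbered over 1000, so that fit separates training from number poorly. The median of the 55 was 0.04, against 0.0065 over all tested genes. It ran from 0.031 to 0.043 with limma-voom, median-ratio scaling and a pseudocount of 0.1. With GC and length correction it was 0.0060 against 0.0011, and without the filter the median of 81 genes was -0.010 against -0.0022.

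Between trained animals labelled KO and untrained animals labelled WT, 11 of the 55 were higher and 2 lower. Of all 12572 tested genes 24.5% were called, 1626 as higher and 1448 as lower. The split of the 55 depended on the method, with 9 higher and 6 lower by limma-voom and 11 and 4 with GC and length correction. In the main fit the calls among receptors and signalling genes were Ifngr1 (0.33), Irf3 (0.25) and Ifngr2 (0.19). Among nucleic acid sensors they were Tmem173 (0.22), which encodes STING, and the nuclease Trex1 (0.17), with Tlr7 lower (-0.20). Among other interferon-induced genes the membrane proteins Ifitm1 (0.34), Ifitm2 (0.33) and Ifitm3 (0.30), the immunoproteasome subunit Psmb10 (0.29), Slfn5 (0.27) and the surface protein Ly6e (0.24) were higher, with B2m lower (-0.32). None of the 13 passed with animal number as a covariate. Only 1 untrained animal labelled WT is numbered over 1000, so that fit can hardly separate arm from number. Its differences moved both ways, with 0.65 for Ifitm1 and -0.33 for B2m, but 0.030 for Trex1 and -0.0019 for Tmem173. Ifnar1 and Ifnar2 were not called in any of these comparisons, and none of the 10 interferon ligand genes listed was analysed here.

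**Figure D5:**
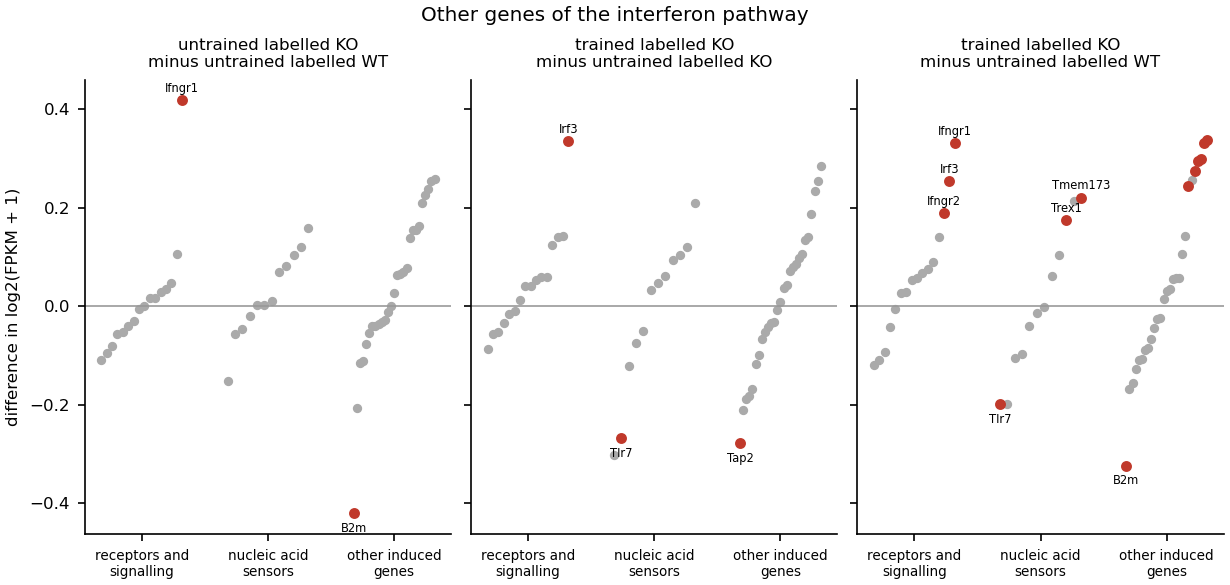
Difference in log2(FPKM + 1) of the 55 tested pathway genes in the 3 comparisons, ordered within each list, with a limma adjusted p under 0.05 in red. The calls number 2, 3 and 13 from left to right, and the 6 unlabelled red points among other induced genes in the right panel are Ifitm1, Ifitm2, Ifitm3, Psmb10, Slfn5 and Ly6e.

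Markers of the cell types that carry these genes were read beside them, as the mean log2(FPKM + 1) of each list. The microglial score (11 of 11 genes in the table) ranged over 4.07 to 4.27 in untrained libraries labelled WT, 3.94 to 4.25 in untrained libraries labelled KO and 3.91 to 4.09 in trained ones. Between the outer arms 5 of the 11 microglial genes fell and 1 rose, where 24.5% of all tested genes were called in either direction. The endothelial score (10 of 10) ranged over 2.32 to 2.76, 2.31 to 2.84 and 2.40 to 2.95, with 1 gene higher. The border macrophage score (3 of 5 genes, Mrc1, Cd163 and Lyve1, all under a mean of 1 FPKM) ranged over 0.260 to 0.546, 0.391 to 1.01 and 0.469 to 0.795. By median the microglial score was 4.12, 4.01 and 4.01 in the 3 arms and the border macrophage score 0.376, 0.581 and 0.728. The arms labelled KO thus stood lower in the first and higher in the second. By genotype label 1 of the 11 microglial genes was called, as lower (1.42% of all tested genes were called). Trem2 (8.22, 5.76 and 5.48 FPKM in the 3 arms) and Aif1 (4.40, 4.10 and 4.50 FPKM) lie on chromosome 17, as Thbs2 does. Mrc1 lies on chromosome 2, as Thbs1 does. Cd4 was the only gene in the table of 10 that mark lymphocytes and neutrophils. The part of cell composition in the differences was not tested.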

How the data were processed

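RNA of 24 animals was deposited by the authors as 1 table of FPKM values. Per the submitters' processing notes, FastQC 0.11.7, Trimmomatic 0.38, STAR 2.5.3a, featureCounts and Subread 1.6.3 were used with the build mm10. Column names were matched to samples by animal number. Whole reads were recovered from the FPKM steps for 15229 genes (99.98% of values whole within 0.01 read). The labels describe no molecular identifiers, so statements on reads cover counting error only. Libraries held 12314984 to 27156301 reads.

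log2(FPKM + 1), which understates changes of low genes, was modelled by limma 3.58.1 under R 4.3.3 (eBayes with trend, sex as a covariate) over 12572 genes with a mean of at least 1 FPKM, adjusted by Benjamini-Hochberg and called under 0.05. The 4 genes below that level were read from a fit of all 15232 genes. Only the arms compared entered a fit, and sex was fitted over all libraries. The code was tested on simulated data. Exact permutation tests exchanged arms within sex (4900 arrangements, 2-sided). Pairs used 100000 permutations within arm and sex. The other software was Python 3.11.15 with scipy 1.17.1, pandas 2.3.3 and numpy 2.4.6. Alternatives changed the pseudocount, filter, scaling, weights, covariates, libraries and threshold, or used limma-voom on recovered reads. The GC and length correction, the fit of the 4 low genes under the other settings, and pairs in animals over 1000 or without trained female library 2 were added after seeing the data.

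The members and lists were chosen with earlier results of these data known. Named were the 9 genes, Thbs1 and Thbs2, list genes that passed between arms and the 6 most alike tested genes. Rnf31, Phrf1 and the paralogs were added after their values were seen. The labels name separate animals, and the p-values measure the spread between them.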

Additional observations from a re-analysis of the deposited data

Results flagged for a closer look

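Among 27 tests of single libraries (9 genes in 3 arms of 8), 3 values lay far from the others of their arm by Dixon's test, where chance flags about 1 in 20, or 1.35 here. Isg15 stood at 1.68 FPKM in untrained male library 2 labelled KO (20 reads), and the next of that arm was 0.842 FPKM. In trained female library 2 Irf7 stood at 1.40 FPKM (48 reads), with the next at 0.963, and Oasl2 stood at 1.73 FPKM (100 reads), with the next at 0.982. Both of these values come from the same animal.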

How the results depend on the processing

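Alternatives other than those named here left the counts of called genes among the 9 as reported. The count for training (1 of 5) was 0 with animal number as a covariate (with or without the filter), in males over 1000 only (with or without the filter), with scaling to an equal sum, at a mean of at least 5 FPKM (1 gene tested) and with a replicate block, and 3 with array weights or a threshold of 0.1. For trained labelled KO against untrained labelled WT it (1) was 0 with the animal-number covariate (with or without the filter) and at a mean of at least 5 FPKM. For sex it (0) was 1 with that covariate, in animals under 1000 only, with an equal sum and at a threshold of 0.1. Without 1 library each, the counts ranged from 0 to 2 for training, 1 to 2 for trained labelled KO against untrained labelled WT, 0 to 1 for sex and 0 to 0 for genotype label and both interactions. Pathway calls for training (3) were 5 with limma-voom and with GC and length correction. For trained labelled KO against untrained labelled WT (11 higher, 2 lower) they were 9 higher and 6 lower with limma-voom. With GC and length correction they were 11 higher and 4 lower. Pairs passing (1) were 0 in animals under 1000 or over 1000 alone and 2 without trained female library 2.

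Replicate numbers name different animals and did not pair them (mean correlation of same-numbered libraries 0.02, -0.07 and -0.10 for genotype label, training and both). With the replicate block the training difference of Irf9 was 0.24 (limma adjusted p = 0.218), and the counts for genotype label and for trained labelled KO against untrained labelled WT stayed at 0 and 1. With the animal-number covariate the training differences turned to 0.028 for Ifit3, -0.094 for Irf7, -0.021 for Oasl2 and -0.16 for Bst2, and among males over 1000 to 0.088 for Ifit3, -0.00027 for Isg15, -0.13 for Irf7, -0.083 for Oasl2 and -0.23 for Bst2. For trained labelled KO against untrained labelled WT, Ifit1 turned to -0.0031 with the covariate, and Ifit3, near 0, turned to -0.069 with it, -0.017 with an equal sum, -0.0051 with limma-voom and -0.0065 with the replicate block, and ranged from -0.021 to 0.059 in fits without 1 library. The cause was not tested, except that the stricter filter left 1 gene. Depth limits Usp18, Isg15 and Bst2 most.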
